A study of Drosophila melanogaster with 2 samples.

Results

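The mitochondrial ribosomal protein genes of the fruit fly were examined for peaks of the mitochondrial DNA packaging protein TFAM at their nuclear promoters. The genes were taken by symbol from all protein-coding genes outside the mitochondrial genome, in the Ensembl annotation of the fly. Their symbols start with mRpL (named for the large subunit) or mRpS (named for the small subunit). This gave 73 genes of 13968 nuclear protein-coding genes, and RefSeq names the product of all 73 a mitochondrial ribosomal protein. By symbol, 47 were named for the large and 26 for the small subunit. The place of each protein in the ribosome was not checked. The choice used symbols only and no measured value.

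The peaks come from chromatin immunoprecipitation sequencing, which recovers and sequences the DNA bound to a chosen protein, in whole Drosophila melanogaster embryos of both sexes aged 0 to 16 h. All embryos were of 1 group, the transgenic strain TFAM-GFP, in which a TFAM transgene ends in green fluorescent protein, and the labels do not say what drives its expression. The 2 samples are biological replicates numbered 3 and 4, each from its own biosample. Precipitation was with an antibody to GFP per the sample descriptions, whereas the antibody entry of the labels reads TFAM, and chromatin was sonicated to 200 to 800 bp. No untagged line or control sample was analysed here, so every statement below describes these lists, without a test and without a comparison of conditions. Whole embryos mix all cell types, so a peak cannot be placed in any of them. Genes that share a peak are not independent, and neither genes nor peaks are replicates.

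Mitochondrial ribosomes translate the small set of respiratory chain subunits that mitochondrial DNA encodes. Their RNA is made in the organelle, whereas all their proteins are encoded in the nucleus, translated in the cytosol and imported. TFAM is an HMG-box protein of the same organelle, where it coats and bends mitochondrial DNA and, in mammals, takes part in starting its transcription. A TFAM peak at a nuclear gene is therefore a recovery of the tagged protein away from the molecule it is best known to bind.

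Of the 73 genes, 7 had the summit of a thresholded peak within 500 bp of a start site, namely mRpS10, mRpS23, mRpL41, mRpL23, mRpL24, mRpS2 and mRpL32. The sequences at 6 of these summits are shown first so that the A+T stretches at or near the summits can be seen, together with that of mRpL20, whose region stayed below the reproducibility threshold but held a longer stretch than any of them. Each runs 5′ to 3′ on the strand of the ribosomal protein gene, and capitals mark every unbroken run of 8 or more A or T bases. The sequence is that of RefSeq, Release 6 of the fly genome, which is the dm6 build, up to 100 bases to either side of the summit and limited to bases outside every annotated exon. The windows were chr3R:15229451-15229651 (+ strand) for mRpS10, chr2L:13835366-13835563 (- strand) for mRpS23, chr3L:2373502-2373596 (- strand) for mRpL23 and chr2L:4945365-4945565 (- strand) for mRpL24. Those of the other genes were chr2L:4850501-4850640 (- strand) for mRpS2, chr3R:31252641-31252841 (+ strand) for mRpL32 and chr3L:13018032-13018232 (- strand) for mRpL20.
mRpS10: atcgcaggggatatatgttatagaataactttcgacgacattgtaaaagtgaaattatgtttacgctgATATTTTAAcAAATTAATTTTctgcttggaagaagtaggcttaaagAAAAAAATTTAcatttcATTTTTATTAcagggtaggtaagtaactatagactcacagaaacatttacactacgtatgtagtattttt
mRpS23: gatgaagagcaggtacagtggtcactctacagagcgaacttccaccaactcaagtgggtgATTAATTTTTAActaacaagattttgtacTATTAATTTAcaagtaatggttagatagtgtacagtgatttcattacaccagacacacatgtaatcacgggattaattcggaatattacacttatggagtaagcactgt
mRpL23: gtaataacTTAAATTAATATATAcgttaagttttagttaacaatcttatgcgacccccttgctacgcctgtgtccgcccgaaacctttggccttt
mRpL24: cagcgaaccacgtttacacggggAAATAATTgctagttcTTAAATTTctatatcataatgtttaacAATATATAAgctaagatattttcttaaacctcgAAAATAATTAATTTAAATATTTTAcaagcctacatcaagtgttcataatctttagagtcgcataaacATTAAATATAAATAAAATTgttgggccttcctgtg
mRpS2: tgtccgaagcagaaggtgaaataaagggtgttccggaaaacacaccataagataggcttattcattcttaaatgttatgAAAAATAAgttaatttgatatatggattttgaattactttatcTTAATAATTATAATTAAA
mRpL32: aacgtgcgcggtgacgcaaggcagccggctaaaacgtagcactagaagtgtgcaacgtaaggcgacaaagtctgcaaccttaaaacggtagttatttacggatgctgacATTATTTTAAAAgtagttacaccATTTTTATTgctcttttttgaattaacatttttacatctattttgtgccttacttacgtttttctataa
mRpL20: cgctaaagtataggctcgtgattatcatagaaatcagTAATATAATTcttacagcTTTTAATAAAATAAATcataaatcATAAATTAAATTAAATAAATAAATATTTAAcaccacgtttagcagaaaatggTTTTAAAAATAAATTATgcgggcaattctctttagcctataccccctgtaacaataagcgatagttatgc

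The summit base itself lies in a marked run at mRpS23, mRpL23, mRpL24 and mRpL20 but outside every run at mRpS10, mRpS2 and mRpL32. In the printed windows, mRpL20 had 73 of its 201 bases in such runs and mRpL24 had 68 of 201. The mRpS10 window had 41 capitals in 4 runs, and the mRpS2, mRpS23, mRpL32 and mRpL23 windows had 26, 22, 21 and 15. A and T together made up 73.1% of the mRpL20 window, 72.1% of that of mRpL24 and 71.6% of that of mRpS10. The mRpL23 window is short because exons lie close on both sides, and its single run holds the summit, which is base 14 of the 95 printed.

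4 lists on dm6 were read. The authors deposited regions called on each replicate against a control, with 13374 nuclear regions in replicate 3 and 13434 in replicate 4. They also deposited a joint list made from the reads of both (the pooled list, 9576 nuclear regions). The last list (the thresholded list, 1268 nuclear peaks) was cut by the irreproducible discovery rate, a measure of how well ranks repeat between replicates. Its peaks were the 1268 highest nuclear regions of the pooled list by value, so single peaks need not rank alike in both replicates. The replicate and pooled lists hold background regions beside peaks, with q-values of up to 0.96, so a summit there is not by itself a peak. Each region carries a value given by the authors' peak caller. It has no unit here and its scale differs between lists, so values are compared only within a list. The lists hold no read counts, and the depth of each library is unknown. Nuclear values reached 837 in the thresholded and pooled lists (medians 129.8 and 46.1), 362 in replicate 3 (median 18.7) and 474 in replicate 4 (median 26.2).

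The thresholded list reached 7 of the 73 mitochondrial ribosomal protein genes, or 9.59%, against 746 of all 13968 nuclear protein-coding genes, or 5.34%. The share of all genes includes the 73. Genes counted by any of their start sites, and most members had 1. With canonical starts alone the count of members stayed at 7, against 4.39% of all genes. In the pooled list 33 members had a summit (45.2%), against 25.3% of all genes. In the replicate 3 list there were 38 (52.1%, against 28.9%) and in the replicate 4 list 32 (43.8%, against 28.7%). The members' share thus stood above that of all genes in each of the 4 lists. The gap was narrower where the q-value had to be at most 0.05. There were 11 such members in the pooled list (15.1%, against 9.45%), 13 in replicate 3 (17.8%, against 11.9%) and 6 in replicate 4 (8.22%, against 6.8%).

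**Figure D1:**
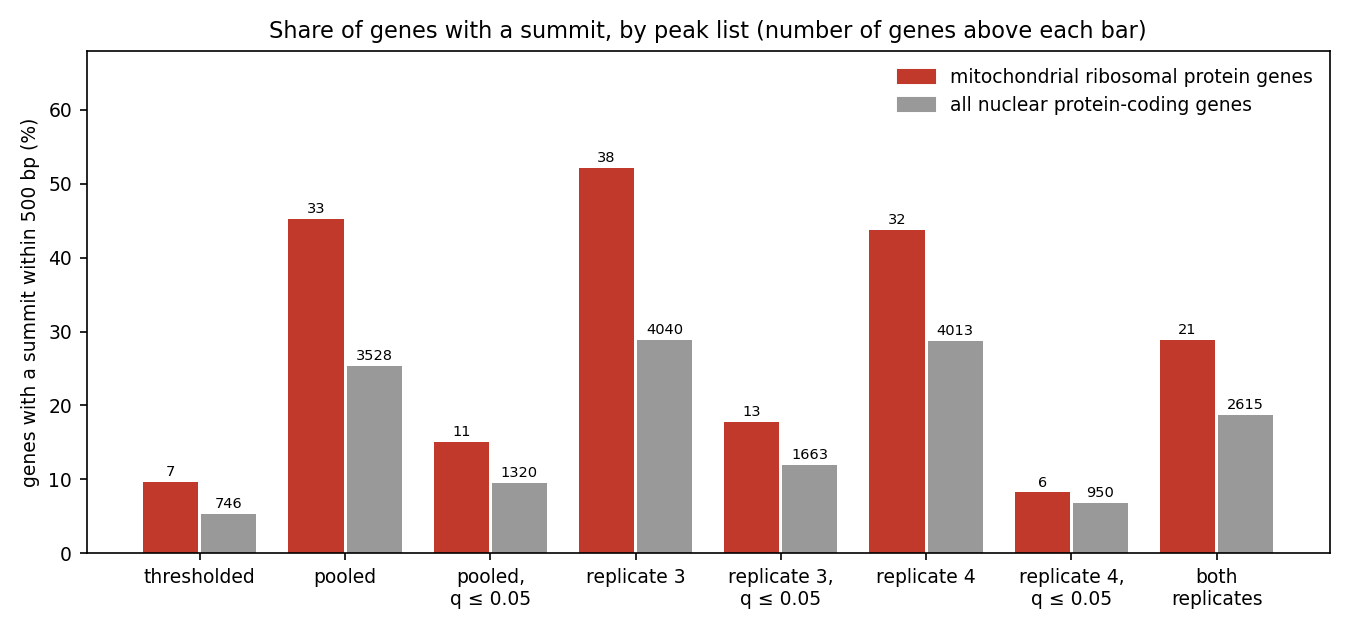
The share of genes with a summit within 500 bp of a start site is plotted for each list (vertical axis, percent), for mitochondrial ribosomal protein genes (red, of 73) and all nuclear protein-coding genes (grey, of 13968), with the number of genes above each bar. Red bars exceed grey ones in every list, widely in the pooled list (45.2% and 25.3%) and least in replicate 4 at q-values up to 0.05 (8.22% and 6.8%).

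The members fell into 4 tiers. Besides the 7 with a thresholded peak, 26 had a region in the pooled list that did not pass the threshold (35.6%, against 19.9% of all genes) and 17 had a region in a replicate list alone (23.3%, against 14%). The remaining 23 members (31.5%) had none within 500 bp in any list, against 8485 of all genes (60.7%). These were mRpL2, mRpL10, mRpL12, mRpL14, mRpL15, mRpL22, mRpL30, mRpL36, mRpL37, mRpL38, mRpL40, mRpL44, mRpL49, mRpL55, mRpS5, mRpS9, mRpS18A, mRpS24, mRpS25, mRpS29, mRpS30, mRpS33 and mRpS35. They include the genes of the stalk protein (mRpL12) and of the GTP-binding small subunit protein known in mammals as DAP3 (mRpS29). The lack of a region at them does not show that TFAM was absent, since the depth is unknown.

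Both replicates held a summit at 21 members (28.8%, against 18.7% of all genes), while 17 members had one in replicate 3 alone and 11 in replicate 4 alone. Of the members found in replicate 3, 55.3% were also in replicate 4, against 64.7% for all genes. In the other direction the shares were 65.6% and 65.2%. Where both replicates had a summit, the closest pair of summits lay a median of 21 bp apart (range 1 to 715 bp). For all genes the median was 43 bp (range 0 to 50129 bp). A pair could lie at different start sites of a gene, and the number of start sites was not matched. Of the 21 closest pairs, 15 (71.4%, against 54.2%) lay within 50 bp.

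The highest member was mRpS10, whose bacterial counterpart sits in the head of the small subunit (FBgn0038307). Its peak, at chromosome 3R 15229426 to 15229644, had a value of 593.6 in the thresholded list, 294.3 in replicate 3 and 290.8 in replicate 4. That made it the 8th highest of the 1268 nuclear peaks, 9th in replicate 3 and 13th in replicate 4, so both replicates placed it near the top. The summits of the replicates differed by 1 bp. The pooled summit lay between genes, 114 bp upstream of the nearest start site of mRpS10 and 143 bp upstream of Art3, a protein arginine methyltransferase gene on the opposite strand.

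The peak near mRpS23, a small subunit protein with no bacterial counterpart (FBgn0260407), was close behind. It lay at 2L 13835354 to 13835564 and had a value of 545.6 in the thresholded list, 258.5 in replicate 3 and 293.4 in replicate 4, with ranks of 11, 13 and 12 in the same order. Its summit was farthest from the member's start among the 7, at 394 bp upstream. It lay 98 bp upstream of CenG1A, which encodes an ArfGAP of the centaurin family and is the nearer gene.

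The third, mRpL41, encodes a large subunit protein specific to mitochondria (FBgn0034001; 2R 15217632 to 15217885). Its value was 486.0 in the thresholded list, 318.8 in replicate 3 and 164.9 in replicate 4. It ranked 18th in the thresholded list, 5th in replicate 3 and 68th in replicate 4, so replicate 3 placed it higher. The summit lay 151 bp upstream of mRpL41. No protein-coding gene shared it, and the other gene in the window was the noncoding lncRNA:CR44463 on the same strand, whose start lay 427 bp away.

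The peak of mRpL23, whose bacterial counterpart stands at the exit of the tunnel through which the new protein leaves the ribosome (FBgn0035335; 3L 2373506 to 2373663), had a value of 318.8 in the thresholded list, 179.3 in replicate 3 and 142.1 in replicate 4. Its ranks were 63, 41 and 102 in the same order. Alone among the 7, it had its summit inside a gene, in an intron of mRpL23 itself. The summit was 82 bp upstream of the nearest mRpL23 start but 95 bp downstream of the start of its canonical transcript, and 145 bp upstream of CG9004. A second replicate 4 region at the edge of the window, 500 bp upstream, had a value of 22.9 and a q-value of 0.83.

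The other 3 peaks were much lower. At mRpL24, another tunnel exit protein in bacteria (FBgn0031651; 2L 4945270 to 4945659), the value was 133.9 in the thresholded list, 91.6 in replicate 3 and 38.8 in replicate 4. At mRpS2 (FBgn0031639; 2L 4850406 to 4850795) it was 101.5 in the thresholded list, 36.4 in replicate 3 and 62.8 in replicate 4. At mRpL32 (FBgn0039835; 3R 31252546 to 31252935) it was 92.4 in the thresholded list, 55.1 in replicate 3 and 38.2 in replicate 4. The mRpL32 peak was the lowest nuclear peak that passed the authors' threshold, 1268th of 1268, whereas mRpL24 was 590th and mRpS2 1050th. By rank, mRpL24 (301 against 2312) and mRpL32 (921 against 2400) stood higher in replicate 3 than in replicate 4, and mRpS2 the other way round (1962 against 760). In replicate 4 the q-values at mRpL24 and mRpL32 were 0.10 and 0.11.

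All 3 of these summits were intergenic and between a member and an opposite gene. The mRpL24 summit lay 104 bp upstream of mRpL24 and 114 bp upstream of betaggt-I, the beta subunit gene of geranylgeranyl transferase I. At mRpL32 the distances were 131 bp and 133 bp to qless, a polyprenyl diphosphate synthase gene of ubiquinone synthesis. At mRpS2 the member's start was 182 bp away and that of Mon1, a subunit gene of the Rab7 activator, only 40 bp.

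The median value of the 7 peaks was 318.8, beside 133.9 for all 575 thresholded promoter peaks of protein-coding genes. In the lists that hold background regions the members' median was slightly below that of all promoter regions instead, at 45.1 against 50.03 in the pooled list, 21.4 against 21.6 in replicate 3 and 27.9 against 28.8 in replicate 4. With 4 peaks between 318.8 and 593.6 and 3 between 92.4 and 133.9, the 7 fell into a high and a low set with none between. In each replicate list the 4 high peaks also had the 4 highest values of any member, and all 4 had a q-value under 0.05 in both.

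**Figure D2:**
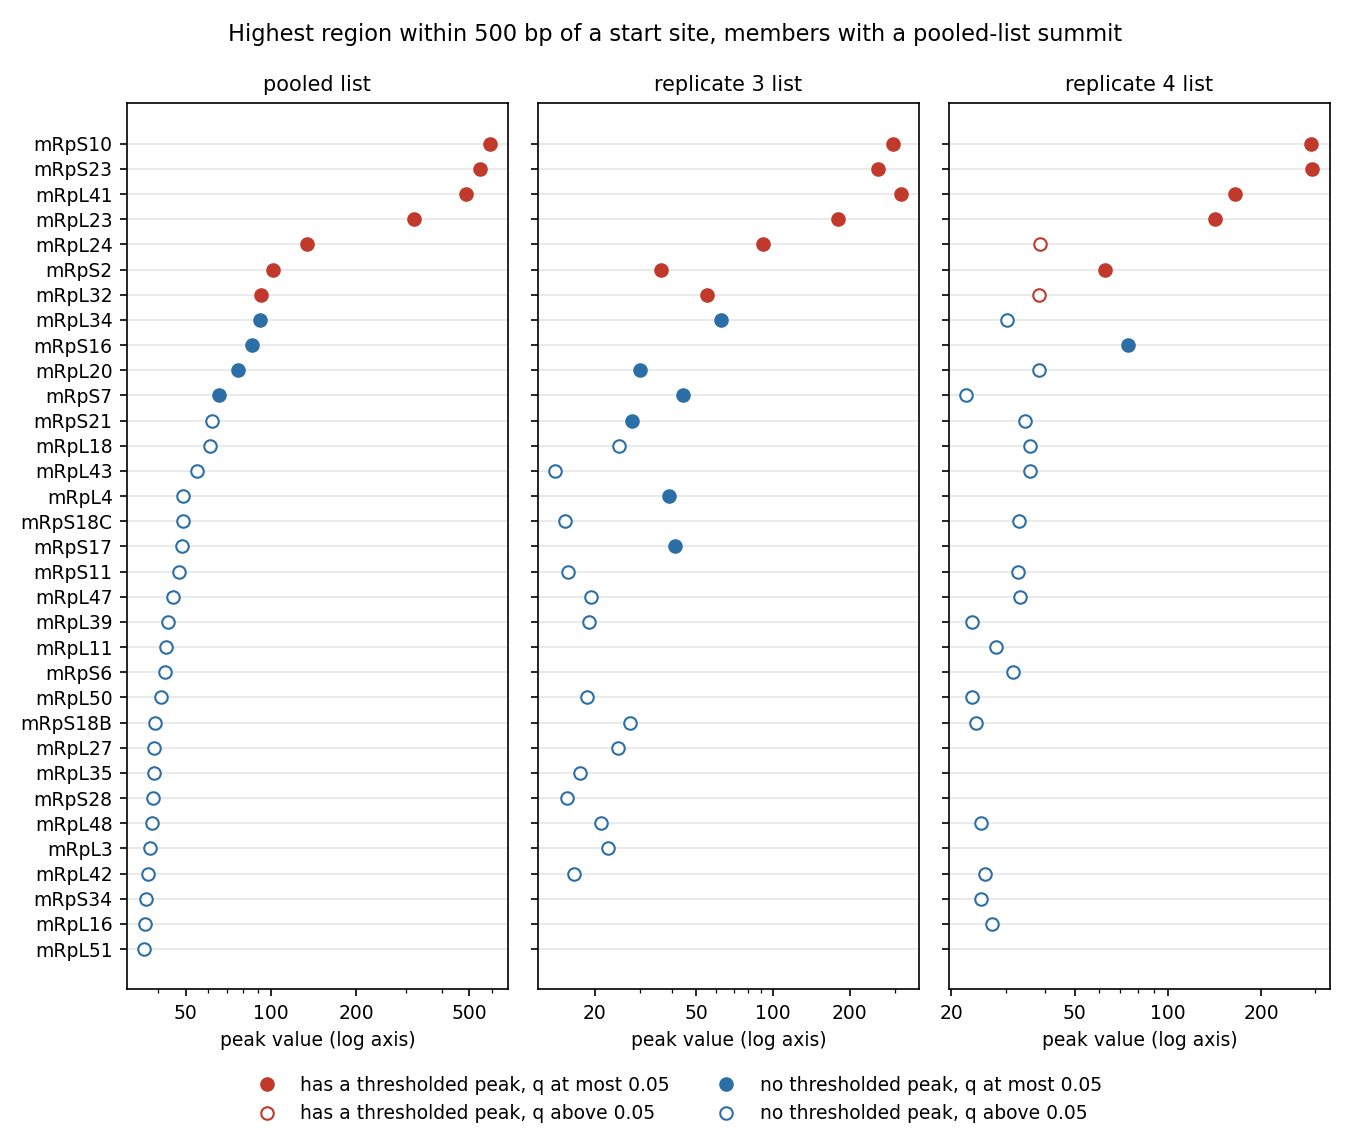
The value of the highest region within 500 bp of a start site (horizontal log axes, no unit, each list on its own scale) is plotted for the 33 members with a summit in the pooled list, ordered by that value. The 7 members with a thresholded peak are red, open symbols have a q-value above 0.05, and the gap between 318.8 (mRpL23) and 133.9 (mRpL24) in the pooled list separates 4 high members from the rest.

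A further 4 members had a pooled region with a q-value of 0.05 or less that ranked below the 1268 nuclear peaks of the thresholded list. The pooled ranks were 1302 for mRpL34, 1468 for mRpS16, 1814 for mRpL20 and 2416 for mRpS7. The first was mRpL34, with a value of 91.4 (q = 0.0087) in the pooled list, just under the 92.4 of mRpL32, the last peak kept. It had 62.4 in replicate 3 and 30.1 (q = 0.39) in replicate 4, and its summit lay 210 bp upstream of mRpL34 and 174 bp upstream of Dg, the dystroglycan gene. At mRpS16 the pooled value was 86.0 (q = 0.0097) and that of replicate 4 was 74.6 (q = 0.013), while replicate 3 had no region in the window. This was the highest replicate 4 value of any member seen in the replicate 4 list but not in that of replicate 3. The mRpS16 summit lay 74 bp upstream of the member and 23 bp upstream of cg, the gene of the zinc finger protein combgap.

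At mRpL20, whose bacterial counterpart is needed to assemble the large subunit (3L 13017937 to 13018326), the value was 76.3 (q = 0.014) in the pooled list, 30.2 (q = 0.023) in replicate 3 and 38.5 (q = 0.11) in replicate 4. Its summit lay 265 bp upstream, nearer to Icmt, an isoprenylcysteine carboxyl methyltransferase gene (134 bp). At mRpS7 (2L 10386268 to 10386657) the value was 65.4 (q = 0.049) in the pooled list, 44.5 in replicate 3 and 22.3 (q = 0.85) in replicate 4. The summit was almost midway between mRpS7 (199 bp) and the cell cycle kinase gene Cdk1 (201 bp). For mRpL34, mRpL20 and mRpS7 the q-value was thus below 0.05 in replicate 3 but not in replicate 4.

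The next 5 members in the pooled list all had q-values above 0.05 there. The values were 61.9 at mRpS21 (q = 0.067), 61.2 at mRpL18 (q = 0.075), 54.7 at mRpL43 (q = 0.17), 49.1 at mRpL4 (q = 0.32) and 48.9 at mRpS18C (q = 0.32). Those of mRpS21 and mRpL18 were seen in replicate 3 (27.9 and 24.8) and in replicate 4 (34.6 and 36.0), with replicate summits 3 and 10 bp apart. The mRpS21 region was shared with Droj2, a DnaJ-type chaperone gene, and that of mRpL18 with Taz, the tafazzin gene of cardiolipin remodelling. Values at mRpL43 and mRpS18C were low in replicate 3 (14.0 and 15.3) and higher up the list in replicate 4 (35.8 and 33.1). The mRpL4 region was shared with no gene and was in replicate 3 (39.2) but not in replicate 4. Another member found in replicate 3 alone was mRpS17, with regions of 41.3 and 34.8 there and of 48.4 and 42.8 in the pooled list. Below these, the pooled values of the other members ran down to 35.8 at mRpL51.

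In the pooled list the 500 bp window cut off few regions, with 36 members at 1000 bp and 33 at 500 bp. At 1000 bp there were 43 members in replicate 3 (38 at 500 bp) and 38 in replicate 4 (32 at 500 bp). Just inside its edge in the pooled list were mRpS34 (478 bp upstream, value 36.2), the lower region of mRpS21 (468 bp upstream, value 34.7) and mRpL51 (455 bp upstream, value 35.8). Just outside were mRpS31 (609 bp upstream, value 51.4, q = 0.25) and mRpL22 (645 bp downstream, value 39.3). Among the members counted in no list, mRpL36 and mRpS25 had replicate 3 regions at 503 bp (q = 0.70) and 517 bp (q = 0.49). No member had a thresholded summit between 500 and 1000 bp.

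Most members with a region shared it with another protein-coding gene, mostly on the other strand. In the thresholded list 6 of the 7 members (85.7%) shared the summit with another protein-coding gene, always on the opposite strand, against 52.1% of the 746 genes with a thresholded summit. In the pooled list 30 of 33 did (90.9%, against 48.8%), in replicate 3 34 of 38 (89.5%, against 50.1%; 33 of the 34 on the opposite strand) and in replicate 4 27 of 32 (84.4%, against 43.8%). The member was the nearer gene for 5 of the 7 thresholded peaks and for 17 of the 33 members in the pooled list. For about as many members as not, the region could therefore be counted for the neighbour instead.

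The layout of the genes was therefore examined. Of the 73 members, 53 (72.6%) had the start of an oppositely oriented protein-coding gene within 500 bp upstream of their canonical start, here called a head-to-head neighbour, against 25.3% of all genes. The starts of such pairs were a median of 279 bp apart (range 20 to 499 bp), against 251 bp for all 3539 genes with such a neighbour. Among genes with a head-to-head neighbour, 29 of 53 members had a summit in the pooled list (54.7%), against 41% of all genes with one. Among those without, the numbers were 4 of 20 (20%), against 19.9%. In the thresholded list, 11.3% of members with such a neighbour had a summit (6 of 53), against 9.72% of all genes, and 5% of those without one (1 of 20), against 3.85%. Within each layout the gap between members and all genes was narrower than over both layouts, and it was widest for head-to-head genes in the pooled list.

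**Figure D3:**
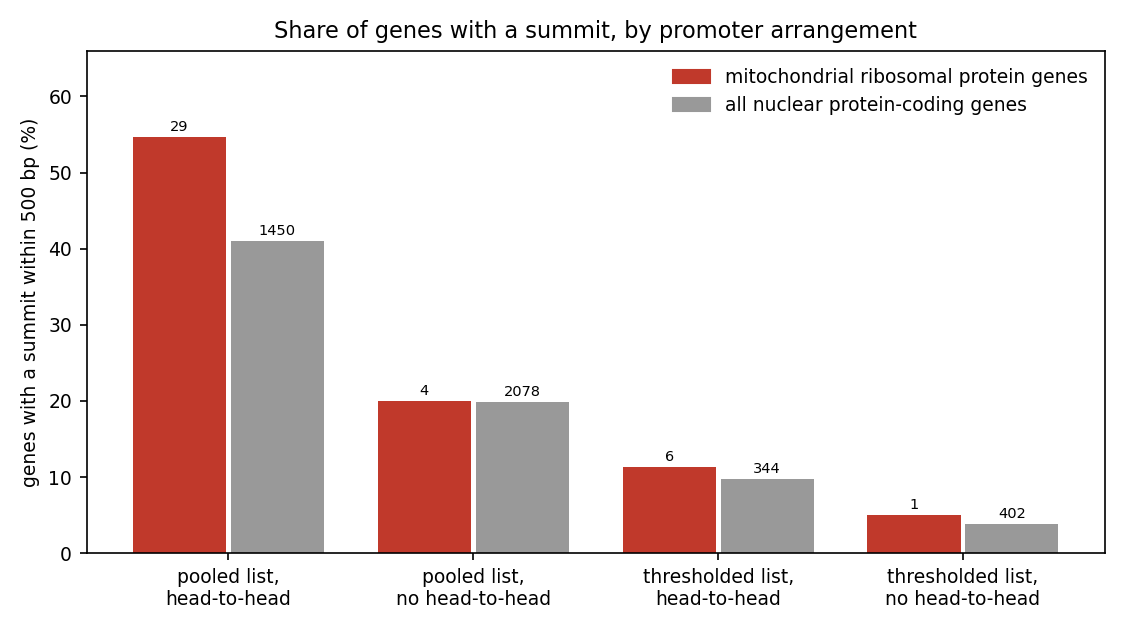
The share of genes with a summit within 500 bp of a start site (vertical axis, percent) is plotted by layout, for mitochondrial ribosomal protein genes (red) and all nuclear protein-coding genes (grey), with the number of genes above each bar. Without a head-to-head neighbour the bars are level in the pooled list (20% and 19.9%), and with one they stand at 54.7% and 41%. A summit counts near any start site of a gene, and the number of start sites was not matched between the sets.

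Layout also differed between the tiers of members. A head-to-head neighbour was present at 6 of the 7 members with a thresholded peak, 23 of the 26 in the pooled list below the threshold (88.5%), 13 of the 17 in a replicate list alone (76.5%) and 11 of the 23 in no list (47.8%). For all genes the shares in the same order were 46.1%, 39.8%, 31.8% and 17.3%. Where a member had both a head-to-head neighbour and a pooled summit, the highest summit lay between the facing starts in 19 of 29 cases (65.5%, against 61% of all such genes). In the thresholded list this held for 5 of 6 (83.3%, against 70.3%), the exception being mRpL23.

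Summits lay mostly upstream of the nearest start site of the member. They did so at 7 of 7 members in the thresholded list (89.5% of all genes with a summit there) and at 30 of 33 in the pooled list (90.9%, against 74.1%). The 7 include mRpL23, whose summit lay inside the gene, 95 bp downstream of its canonical start. In replicate 3 the share was 89.5% (34 of 38, against 78.1%) and in replicate 4 81.2% (26 of 32, against 63.2%). The median pooled position was -131 bp from the nearest start of the gene, against -110 bp for all genes, where negative is upstream.

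**Figure D4:**
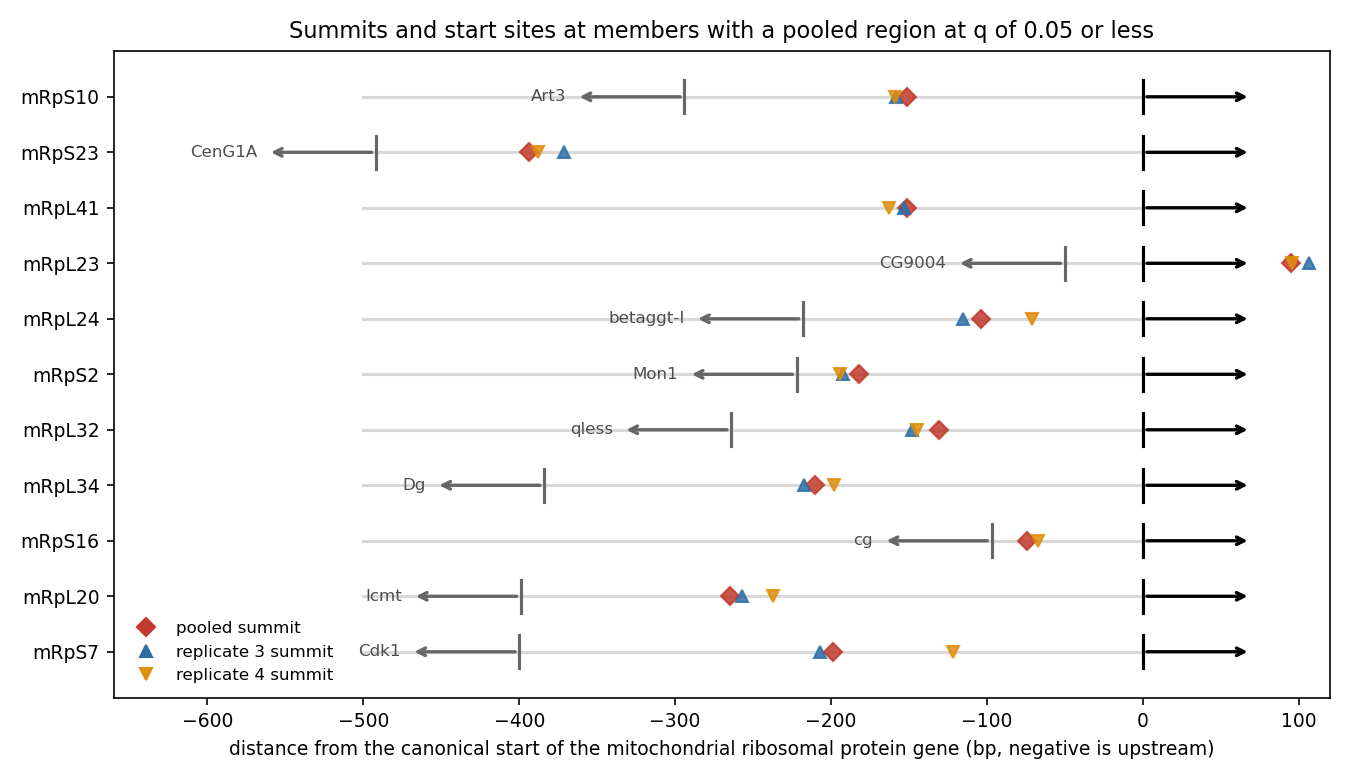
Summits in the pooled list (red diamonds), replicate 3 (blue triangles) and replicate 4 (orange inverted triangles) are drawn to scale by distance from the canonical start of the 11 members whose pooled region had a q-value of 0.05 or less, with black arrows for the member and grey arrows for its head-to-head neighbour. In 9 of the 11 the pooled summit falls between the facing arrows, mRpL41 has no such neighbour, and the mRpL23 summits fall inside the gene.

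Peaks were found at genes named for either subunit. Of the genes named for the large subunit, 4 of 47 had a thresholded peak (8.51%) and 20 a pooled summit (42.6%). Of those named for the small subunit the numbers were 3 of 26 (11.5%) and 13 (50%). Over all nuclear protein-coding genes the shares were 5.34% thresholded and 25.3% pooled. The members were also split by the number in their symbol, a split made after the values had been seen. The lower set was numbered within the range of the bacterial ribosome (up to 21 in the small and 36 in the large subunit). The higher set was numbered above it. Whether each protein has a bacterial counterpart was not checked, and a higher number does not show that it lacks one. The lower set had 5 thresholded of 42 (11.9%) and 22 pooled (52.4%), and the higher set 2 of 31 (6.45%) and 11 pooled (35.5%). Among genes named for the small subunit the pooled shares stood at 71.4% of 14 and 25% of 12, the latter near the share of all genes. Among those named for the large subunit they stood at 42.9% of 28 and 42.1% of 19. Layout moved with this split among genes named for the small subunit, with a head-to-head neighbour at 85.7% of the first set and 58.3% of the second. Its part in the difference was not tested.

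By chromosome arm, the pooled list reached 9 of the 12 members on 2L, 8 of 12 on 2R, 6 of 17 on 3L, 8 of 21 on 3R and 2 of 11 on X. For all genes the shares were nearly even, at 25%, 24.4%, 26.1%, 27.2% and 22.9% in the same order. The thresholded peaks fell on 2L (3), 3R (2), 2R (1) and 3L (1), and none of the 11 members on X had one. The share of all genes with a thresholded peak was 5.53% on 2L, 6.11% on 3R, 4.73% on 2R, 5.55% on 3L and 4.6% on X, so a count of 0 among 11 is near the background.

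Other genes of mitochondrial gene expression were examined in the same way, in lists of 2 to 18 genes. Neither of the mitochondrial ribosomal protein genes with other symbols, tko and bonsai, had a pooled summit, and bonsai had 1 region in replicate 4 alone (value 21.1). Of 10 mitochondrial translation factor genes, none had a thresholded peak and 1 a pooled summit, waw (66.4, q = 0.044; 21.5 in replicate 3 and 42.0 in replicate 4), which encodes the ribosome-binding GTPase known in bacteria as LepA. Of 18 genes for mitochondrial aminoacyl-tRNA synthetases and the glutamyl-tRNA amidotransferase, none had a thresholded peak and only GatA, an amidotransferase subunit, had a pooled summit (37.4). In the replicate 4 list, 4 of these 18 had a summit (22.2%, against 28.7% of all genes). With 5.34% of all genes in the thresholded list, a count of 0 in lists of 10 and 18 genes is near the background, while 25.3% of all genes had a pooled summit.

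Of 10 genes for mitochondrial transcription and RNA maturation, 1 had a thresholded peak (10%, against 5.34% of all genes). This was PNPase, an exoribonuclease gene, with a value of 563 in the thresholded list, 235 in replicate 3 and 323 in replicate 4, and with its summit 82 bp downstream of the start. Its value lay between those of mRpS10 and mRpS23 in the thresholded list, below both in replicate 3 and above both in replicate 4. TFAM itself had no summit in any list. Of 88 nuclear genes of oxidative phosphorylation, whose products work beside those made on the mitochondrial ribosome, 2 had a thresholded peak (2.27%, against 5.34% of all genes). These were ND-ASHI at 134 and ND-MWFE at 114, both complex I subunits. A pooled summit was at 27 of the 88 (30.7%, against 25.3%).

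The mitochondrial ribosomal protein genes were also set beside those of the cytosolic ribosome. Of the mitochondrial set 9.59% had a thresholded peak, against 46 of the 93 cytosolic genes (49.5%), and 45.2% had a pooled summit, against 74 of the cytosolic genes (79.6%). Head-to-head neighbours were present at 72.6% of the mitochondrial set, against 38.7% of the cytosolic set. In the thresholded list the 4 highest mitochondrial values, from 318.8 to 593.6, were above the highest cytosolic ones, which were 310.4 (RpS27), 303 (RpL7), 288 (RpL14), 263 (RpL41) and 227 (RpL24). This did not hold in replicate 4, where mRpL41 (164.9) and mRpL23 (142.1) lay below RpL14 (187), RpS27 (176) and RpL7 (168), and mRpL23 also below RpL41 (146).

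Base composition was examined because TFAM peaks lay on A+T-rich sequence at several members, a choice made after the data had been seen. In the 101 bp centred on the 7 thresholded member summits, A and T made up 71.7% ± 5.30 (SD, n = 7; range 64.4 to 79.2%). At the other 568 thresholded promoter summits the figure was 65.9% ± 9.61 (SD). All 7 member windows held a run of 8 or more A or T bases, against 76.9% of the other windows, with median longest runs of 12 and 10 bases. At the 30 member summits in the pooled list that did not pass the threshold, A and T made up 60.1% ± 11.8 and 12 windows held such a run (40%). For the other 2621 summits of this kind the values were 59.0% ± 10.7 and 54.8%. The ranges of single summits overlapped widely between these sets.

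Single members varied. The highest A+T share among the 7 was at mRpL24 (79.2%, longest run 24 bases), followed by mRpL41 (76.2%, 13), mRpS10 (74.3%, 11), mRpL23 (71.3%, 15), mRpS23 (70.3%, 12), mRpL32 (66.3%, 12) and mRpS2 (64.4%, 8). The order did not follow the peak values, since mRpL24 and mRpS2 were both low peaks. Among members below the threshold, mRpL20 had 82.2% and a run of 30 bases, the extended stretch printed in capitals above. At the other extreme, mRpS16 had 39.6% and a longest run of 3 bases, although its pooled value exceeded that of mRpL20.

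**Figure D5:**
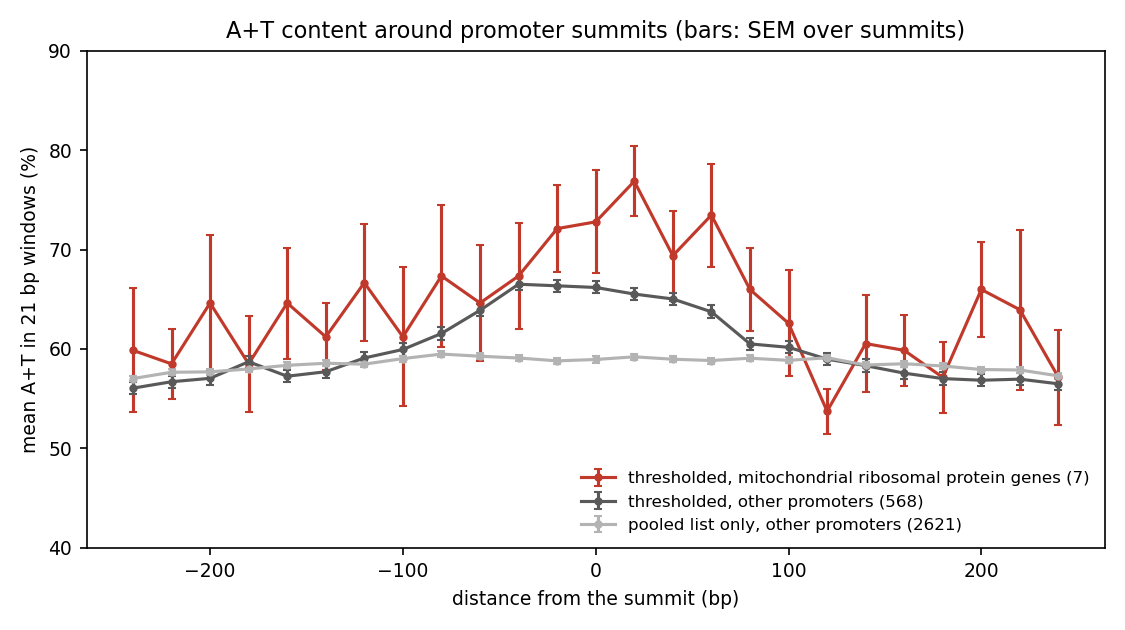
Mean A+T content in 21 bp windows (vertical axis, percent, not starting at 0; bars are the SEM over summits) is plotted against distance from the summit along the plus strand (bp), for the 7 thresholded member summits (red), 568 other thresholded promoter summits (dark grey) and 2621 other promoter summits found in the pooled list only (light grey). At the summit the means are 72.8%, 66.2% and 58.9%, and the error bars of the 7 members are wide at every distance.

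The member promoters as a whole were also examined, from 250 bases before to 50 after the canonical start. They averaged 64.2% A+T ± 6.13 (SD, n = 73), against 60.7% ± 7.86 for all genes and 62.8% ± 6.41 for those with a head-to-head neighbour. The 33 members with a pooled summit averaged 63.5% ± 5.61 and the 40 without one 64.7% ± 6.54, which differ by less than either SD.

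Known promoter motifs were searched on both strands. The DNA replication-related element bound by Dref (TATCGATA) was in 15 member promoters (20.5%), against 8.95% of all and 17.7% of head-to-head promoters. Its core, CGATA, which every full match also holds, was in 57.5%, against 47% and 63%. Ohler motif 1 (core GGTCACACT) was in 11% of the members, against 5.86% of all and 12% of head-to-head promoters, and Ohler motif 7 (CATCNCTA) in 11%, against 6.32% and 12.5%. For each of these core promoter motifs the members' share was nearer to that of head-to-head promoters than to that of all promoters.

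The GAGA repeat (GAGAG) was in 16.4% of member promoters, against 30.2% of all and 22.6% of head-to-head promoters. The TATA box letters (TATAAA) were in 46.6%, against 45.3% and 48.4%. The E-box (CACGTG) was in 5 members (6.85%, against 4.28% and 5.23%), the NRF1 core (GCGCATGC), whose fly factor is Ewg, in 1 (1.37%, against 1.06% and 0.678%), and the ETS letters (CCGGAAGT) in none (0.372% and 0.226%). In mammals, factors of the NRF1 and ETS families are known regulators of nuclear genes for mitochondria.

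Within 100 bp of the 7 thresholded member summits, 7 of the 9 motifs had no match. Of these motifs, the core of the DNA replication-related element was at 30.1% of the other 568 thresholded promoter summits. The rest were at 1.23% (NRF1 letters) to 5.46% (the full DNA replication-related element), so no match among 7 is near the background for them. The TATA box letters were at 2 of the 7 (mRpL23 and mRpL24, against 36.3% of the others), and the GAGA repeat at 1 (mRpL23, against 24.8%). In these summit windows at mRpS10, mRpS23, mRpL41, mRpS2 and mRpL32 none of the 9 matched. The promoters of the same 7 members, a longer stretch around the canonical start, held some of these motifs. The DNA replication-related element was in 2 of the 7 promoters, its core in 3, Ohler motif 7 in 2 and the E-box in 1. Ohler motif 1 and the ETS and NRF1 letters were in none of these promoters. At the 30 member summits found in the pooled list only, several motifs were at higher shares than at the other 2621 such summits. The DNA replication-related element was at 13.3%, against 5.34%, and its core at 43.3%, against 33.8%. The E-box was at 13.3%, against 2.48%, and Ohler motif 1 at 13.3%, against 3.36%, the 13.3% being 4 summits each time. Ohler motif 7 was at 6.67%, against 4.88%. The GAGA repeat was lower (13.3%, against 23.7%), the TATA box letters were near level (26.7%, against 27.9%), and the ETS and NRF1 letters had no match. A lack of these letters in a window of this size says nothing of whether a factor binds there.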

How the data were processed

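TFAM-GFP embryos (1 group, 2 biological replicates) were profiled by ChIP-seq. The authors deposited dm6 peak lists per replicate, pooled, and after a reproducibility threshold, each made with a control, per the deposited file descriptions. For the aligner and the peak caller with its settings, names are not given in the sources used. The value used is the peak caller's score, deposited by the authors, on a scale that differs between lists. The lists deposited by the authors also hold the −log10 of a q-value, converted here to q. Depth is unknown, so no interval is given. The dm3 lists were not used here.

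Summits were joined to all start sites of Ensembl 115 protein-coding genes (BDGP6.54) within 500 bp, in Python 3.11.15 with numpy 2.4.6, and plots were drawn with matplotlib 3.10.9. The join was tested on simulated data. Coordinates are dm6, counted from 1, and chromosome lengths were checked against the RefSeq genome. Values, ranks and counts were compared within lists, with no test. A head-to-head neighbour is a protein-coding gene on the opposite strand whose start lies up to 500 bp upstream of the canonical start. Of the symbols looked up, mEFG2 and DAP3 were not found, and mRRF1 was counted with the translation factors.

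Named genes were all members with a thresholded summit, other members with a pooled q-value of 0.05 or less, the 5 next by pooled value, the 3 highest in exactly 1 replicate list, neighbours sharing a thresholded summit, and up to 5 thresholded genes of each list. The 3 highest in exactly 1 replicate list were picked across both replicate lists, whose scales differ. Further genes, named as examples at list ends and window edges, were chosen after their values were seen. Members, lists and motifs were chosen with earlier results of these data known. The layout, numbering, tier and A+T comparisons were added after the values had been seen. Alternatives covered the window, the start site, the nearest gene only, any overlapping base, the q-value, the higher-scoring part of the thresholded list and each replicate left out.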

Additional observations from a re-analysis of the deposited data

How the results depend on the processing

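Of 47 alternative values, 32 stayed within their limits and 15 moved. The 7 members with a thresholded summit became 5 to 7 under all settings tried, 5 when a summit counted for the nearest start only, and 6 without replicate 3 or 7 without replicate 4, where as many of the highest regions of the other replicate were taken as the thresholded list holds. Without replicate 3, 5 of the 7 were retained and mRpS16 entered; without replicate 4, 6 were and mRpL34 entered. The numbers of members sharing a thresholded summit were 6 and 7 in those cases. Counts below the threshold depended on the setting, by construction. Within 200 bp there were 20 members in the pooled list (33 at 500 bp) and 24 in replicate 3 (38). With the nearest start only there were 17 in the pooled list, 18 in replicate 3 and 17 in replicate 4 (32 otherwise). With a q-value of 0.05 or less there were 11, 13 and 6. For the 200 bp and nearest-start settings the share of all genes was taken in the thresholded list only. Whether the members' share still exceeded it in the other lists was therefore not tested. The median value of the 7 peaks (318.8) became 226 within 200 bp and 486 in the upper part of the list by value. It was 153 without replicate 3 and 179 without replicate 4, each on the scale of the list that remained. The share of all genes with a thresholded summit (5.34%) became 3.48% within 200 bp and 2.91% in the upper part of the list, and 5.13% to 5.52% with a replicate left out. It was 4.39% with the canonical start only (7 members) and 3.94% with the nearest start only (5 members). With neighbours up to 1000 and 2000 bp away, distances added after seeing the data, 58 and 59 members were head-to-head, against 34.0% and 42.3% of all genes (25.3% at 500 bp). No paired analysis was possible because there is 1 group. With 7 thresholded members, 2 replicates and no control analysed, shares that differ by a few genes carry little weight. Shared promoters leave the gene behind a peak unassigned.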
